A study of Mus musculus with 8 samples.

Results

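The proteasome genes described here are the 49 protein-coding genes, of 15864 in the table, whose symbols start with Psma to Psmg followed by a number. They encode the alpha and beta subunits of the 20S core particle, the ATPases, base and lid of the 19S regulatory particle, activators and an inhibitor of the core, and factors that assemble it. The question was whether the lower level of Psmb5, a catalytic subunit, in livers labelled as knockout for both mitoferrin genes went with a change in the other subunits. The symbol pattern also takes in Psmc3ip, a partner of meiotic recombinases that is no proteasome subunit, and Psma8, an alpha subunit known from testis.

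RNA was sequenced from 5 knockout and 3 control samples of mouse liver. The knockouts are labelled Alb-cre Mfrn1-/- Mfrn2 -/-. Alb-cre expresses Cre recombinase from the albumin promoter, which is active in hepatocytes, so other cells of the liver may not be targeted by it. Mfrn1 and Mfrn2 are the mitochondrial iron carriers Slc25a37 and Slc25a28. The controls are labelled WT and described as matched in age. The age itself is not stated, and no Cre transgene is named for the controls. Both groups ate standard chow. The labels do not say that each sample came from its own animal, and a p-value here reflects only how these samples spread, which may be technical. Libraries held 24.6 to 31.9 M (M, mega) counts in the knockouts and 35.5 to 43.1 M in the controls. As a check of the genotype, Slc25a28 averaged 0.725 ± 0.111 CPM in knockout and 17.1 ± 0.851 CPM in control livers (SD, n = 5 and n = 3). Slc25a37 averaged 8.32 ± 1.72 CPM in knockout and 17.8 ± 5.06 CPM in control livers. The knockout levels were thus 4.24% of control for Slc25a28 and 46.8% for Slc25a37. Slc25a28 was called by edgeR (adjusted p = 1.92e-07). Slc25a37 was not called by edgeR (adjusted p = 0.104) but was called by DESeq2 (adjusted p = 3.37e-04). Summed over 6 hepatocyte markers, the libraries held 91617 to 103158 CPM in knockout and 94260 to 98112 CPM in control. CPM are counts per M counts of the scaled library size. In whole liver, fewer cells of a type and less RNA per cell cannot be told apart.

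The proteasome is the protease that degrades proteins marked with ubiquitin. Its 20S core is a barrel of stacked alpha and beta rings, and the active sites sit on Psmb5 (chymotrypsin-like activity), Psmb6 (caspase-like) and Psmb7 (trypsin-like). In cells exposed to interferon, Psmb8, Psmb9 and Psmb10 take the places of Psmb5, Psmb6 and Psmb7 to form the immunoproteasome, which makes peptides for presentation on MHC class I. The constitutive genes are commonly induced together by the transcription factor Nfe2l1 when proteasome activity falls short.

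Psmb5 (ENSMUSG00000022193) lies on the minus strand of chromosome 14 at 54614120 to 54617995 (mm10). The microRNA gene Mir686 lies on the same strand at 54616677 to 54616785, wholly inside exon 2 of Psmb5 (54616515 to 54616821 in GENCODE M21), and that exon is coding. The hairpin is 12.1% of the 899-base Psmb5 transcript. A processed pseudogene, Gm3375 on chromosome 7 (3181093 to 3181888, plus strand), matches Psmb5 in 99.0% of aligned bases, with 8 mismatches and 1 gap. The hairpin segment is shown in both genes because no 50-base window wholly inside it occurs in Gm3375. Other stretches of Psmb5 also differ: of 425 windows of 50 bases unique to Psmb5, 94 overlap the segment. The segment is followed by the mature microRNA and by the 100 bases before the RefSeq starts of Psmb5 and Psmb6. Segment positions are counted from 1 at the 5′ end of the hairpin, and the 2 substitutions from Psmb5 to Gm3375 are C63T and C72T. Capitals mark these bases and the 1 extra base of Gm3375 in the segments, the seed (bases 2 to 8) in the microRNA, and the motif TGACNNNGC in the upstream sequences. The segments are from GENCODE M21 transcripts (GRCm38), and the microRNA and the upstream sequences from RefSeq (GRCm38.p6). Gene starts differ between annotations: the GENCODE transcript of Psmb5 starts at 54618022, so the last 27 bases of its upstream sequence lie inside GENCODE exon 1, and the RefSeq start of Psmb6 is 70525357.
Psmb5 exon 2, chr14:54616677-54616785, minus strand: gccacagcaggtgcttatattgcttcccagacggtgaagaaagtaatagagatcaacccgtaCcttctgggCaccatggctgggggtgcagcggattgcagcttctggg
Gm3375, chr7:3181327-3181436, plus strand: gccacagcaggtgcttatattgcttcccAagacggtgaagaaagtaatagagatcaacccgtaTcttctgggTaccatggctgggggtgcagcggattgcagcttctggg
mmu-miR-686: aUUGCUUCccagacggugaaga
Psmb5 upstream, chr14:54617996-54618095, minus strand: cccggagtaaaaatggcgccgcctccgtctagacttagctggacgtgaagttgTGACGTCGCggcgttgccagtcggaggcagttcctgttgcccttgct
Psmb6 upstream, chr11:70525257-70525356, plus strand: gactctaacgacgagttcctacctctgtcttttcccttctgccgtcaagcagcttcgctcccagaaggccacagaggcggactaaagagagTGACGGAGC

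Psmb5 fell to 49.3% of the control level in knockout liver, while Psmb6 and Psmb7, the genes of the other constitutive active sites, were at 98.6% and 96.7% of it and were not called. Psmb5 was counted at 9.86, 10.3, 12.8, 10.8 and 10.4 CPM in knockout replicates 1 to 5, against 24.7, 16.8 and 24.4 CPM in control replicates 1 to 3. Every knockout library was below every control library, and control replicate 2 lay nearest to the knockouts. The raw counts behind these values were 268 to 331 in the knockouts and 698 to 1087 in the controls. The log2 fold change was -1.02 ± 0.140 (SE), with a 95% interval of -1.33 to -0.71 and an adjusted p in edgeR of 0.0353 over all 14664 genes tested. An exact two-sided permutation of its log2 CPM (56 arrangements of the 8 libraries) gave p = 0.0179, the smallest that this design allows. In the authors' deposited table the log2 ratio of Psmb5 is -0.86. This call was the starting point of the comparison and is no independent support for it.

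DESeq2 gave Psmb5 an adjusted p of 7.59e-07, and limma-voom one of 0.0439. In edgeR the call of Psmb5 was close to the threshold. It was lost without knockout replicate 1, 2, 4 or 5 and without control replicate 1 or 3 (adjusted p in edgeR = 0.117, 0.0994, 0.0758, 0.0924, 0.109 and 0.128), while the log2 fold change over the 8 omissions stayed between -1.18 and -0.92. Among samples whose title begins with 82, which hold all controls and knockout replicates 4 and 5, the log2 fold change was -1.05 ± 0.192 (SE, adjusted p in edgeR = 0.210), and in the knockouts with titles beginning with 85 against the same controls it was -1.003 ± 0.178 (SE, adjusted p in edgeR = 0.137).

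Psmb6 (chromosome 11, 70525367 to 70527858, plus strand) was at 112, 123, 143, 137 and 122 CPM in the knockouts, against 133, 125 and 129 CPM in the controls. The control values lay inside the knockout range. Its log2 fold change was -0.02 ± 0.0975 (SE), with a 95% interval of -0.24 to 0.20 (adjusted p in edgeR = 0.963). Psmb7 (chromosome 2, 38588036 to 38644087, minus strand) was at 83.7, 90.4, 105, 96.4 and 86.7 CPM in the knockouts, against 92.4, 99.8 and 94.4 CPM in the controls. Here too the groups overlapped, with a log2 fold change of -0.05 ± 0.0922 (SE) and a 95% interval of -0.25 to 0.16 (adjusted p in edgeR = 0.895). The sign of the small difference turned for Psmb6 and Psmb7 under some other settings, so neither has a direction. Both intervals lie wholly above that of Psmb5.

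**Figure D1:**
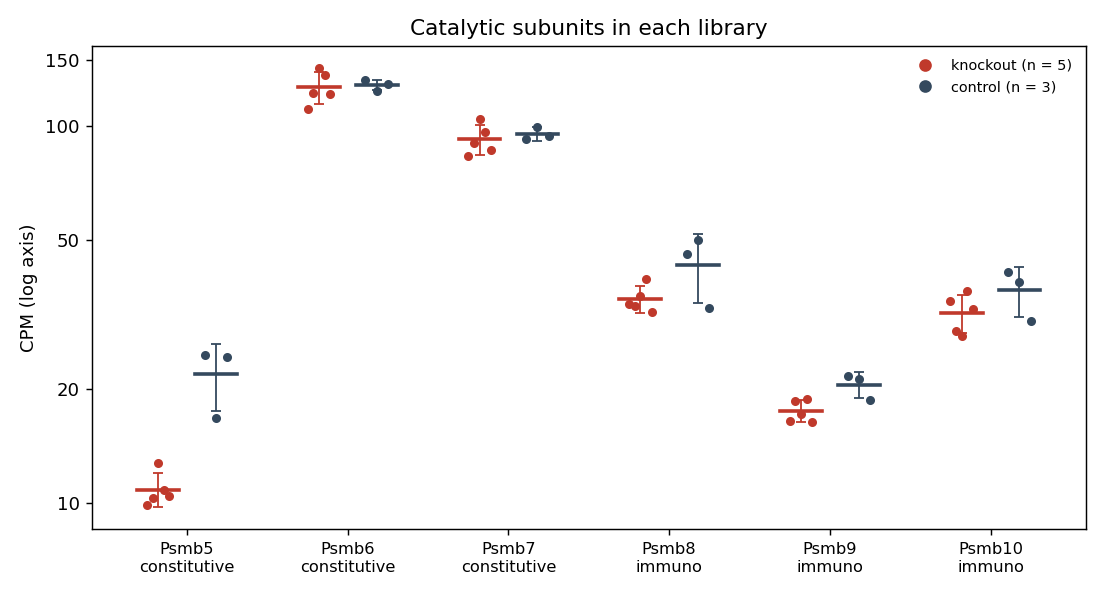
CPM (log axis) of the 3 constitutive and 3 immunoproteasome catalytic subunits in each library, knockout (red, n = 5) beside control (blue, n = 3); bars are the mean and the whiskers 1 SD. The knockouts lie at 9.86 to 12.8 CPM for Psmb5, below all controls, and the groups overlap for each of the other 5 genes.

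The FPKM deposited by the authors, which are per length, put Psmb5 beside its partners. Psmb5 FPKM were 18.98, 18.1, 19.1, 17.01 and 18.4% of Psmb6 FPKM in the knockouts, against 39.9, 29.0 and 40.6% in the controls. They were 15.6 to 16.97% of Psmb7 FPKM in the knockouts and 23.5 to 37.2% in the controls. Neither ratio overlapped between the groups, which restates the lower Psmb5 counts. The size of these percentages depends on the gene length used. By counts per kilobase of GENCODE M21 exons, Psmb5 was at 42.7 to 46.3% of Psmb7 in the knockouts and 64.1 to 101.6% in the controls, and at 16.5 to 18.5% of Psmb6 in the knockouts and 28.1 to 39.3% in the controls. Psmb5 made up 1.86 ± 0.0794% of the summed FPKM of the 14 constitutive 20S genes in knockout and 3.53 ± 0.641% in control livers (SD, n = 5 and n = 3).

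In the order of FPKM among the 14 constitutive 20S genes, Psmb5 was 11th in both groups. Psmb1, a non-catalytic beta subunit, was first with 114.7 ± 5.32 FPKM in knockout and 121 ± 4.96 FPKM in control livers, and Psma3 was last with 5.30 ± 0.663 FPKM in knockout and 5.19 ± 0.274 FPKM in control livers (SD, n = 5 and n = 3). Psmb5 stood at 12.4 ± 1.06 FPKM in knockout, where its libraries overlapped those of the next gene, Psma5 (11.98 ± 1.69 FPKM). In control it stood at 25.2 ± 5.50 FPKM, apart from Psma5 below it (11.8 ± 0.736 FPKM) and from Psma4 above it (31.4 ± 1.64 FPKM). Among other neighbours in the control order, Psma2 and Psmb6, Psmb2 and Psma1, and Psma7 and Psma4 had overlapping libraries. The order of the upper genes depends on the gene length used: by counts per kilobase of GENCODE M21 exons Psmb1 was 9th and Psmb7 8th in both groups, and Psma2 was 10th in knockout and 11th in control.

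Levels at the low end are uncertain, because part of these transcripts reads the same as other genes. Of the 850 windows of 50 bases in the Psmb5 transcript, 425 occur in a transcript of another gene, and 420 of these in Gm3375. The 5 lowest genes of the order share 22.0 to 55.8% of such windows with other genes, and the 9 above them 0 to 3.53%. How the submitters' pipeline treated reads with more than 1 match is not given in the sources used here, and the part of such reads in these levels was not tested. No window wholly inside the hairpin segment is shared, since the 1 extra base and the 2 substitutions of Gm3375 break each match there.

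**Figure D2:**
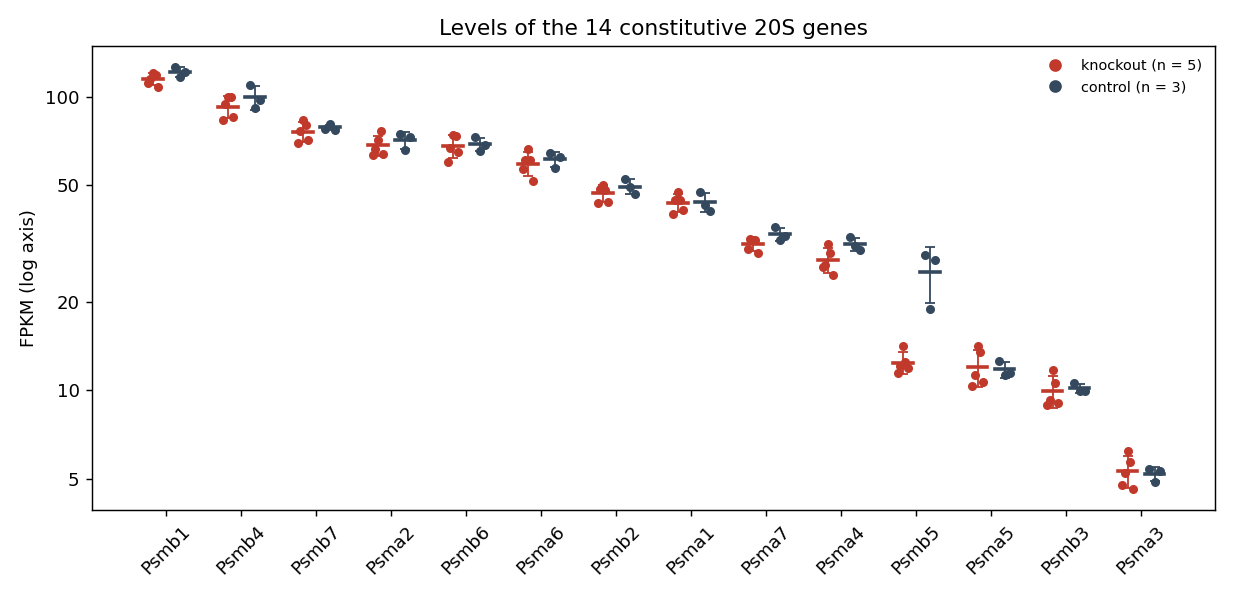
FPKM (log axis) of the 14 constitutive 20S genes in each library, in the order of the control means, knockout (red, n = 5) beside control (blue, n = 3); bars are means and whiskers 1 SD. Psmb5 is 11th, and its knockout libraries lie level with those of Psma5, at 11.4 to 14.2 FPKM.

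Mir686 counts gave a second reading of the same stretch of genome. Mir686 was at 3.53, 3.95, 3.99, 3.39 and 4.00 CPM in the knockouts, against 9.01, 6.27 and 8.71 CPM in the controls. The groups did not overlap, and control replicate 2 was again the lowest control. Its log2 fold change was -1.08 ± 0.141 (SE, adjusted p in edgeR = 0.0270). Its counts equalled 31.3 to 38.4% of the Psmb5 counts in the knockouts and 35.7 to 37.2% in the controls, so the ratio overlapped. Reads of the Psmb5 messenger that cross exon 2 fall on the hairpin as well, and whether a read was counted for both genes is not given in the sources used here. With the Mir686 counts taken off Psmb5, its log2 fold change was -0.99 (adjusted p in edgeR = 0.0682).

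All 49 genes passed the filter on low counts. Psmb5 was the only one of them called by edgeR at an adjusted p under 0.05, where 16 of all genes tested were called (0.109%), 9 of them lower (0.0614%), and the only one called by DESeq2, where 1.62% of genes were called. At an unadjusted edgeR p under 0.05 stood 3 lower members, Psmb5, Psmb8 and Psmb9 (6.12%, where 4.68% of all genes did), and 1 higher member, Psmd11 (2.04%, where 5.67% did). Groups did not overlap for Psmb5 and Psmg2, both lower, or 4.08% of members, where 3.74% of all genes lay lower without overlap.

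The other 48 genes had log2 fold changes between -0.30 and 0.19, and their adjusted p in edgeR ranged from 0.420 to 0.995. Of them 32 were below 0 (66.7%, where 50.8% of all genes were) and 16 above. Their median was -0.04, beside a median of -0.0037 over all genes tested. The median ranged from -0.09 to 0.02 over the alternatives, and was above 0 without knockout replicates 1 and 2 together and when a trend with gene length was removed, so the small offset has no settled sign. The 95% interval lay wholly within 0.5 of 0 for 44 of the 48 (91.7%), against 52.3% of all genes. The width of an interval also depends on the level of a gene, and genes of like level were not compared. The 4 intervals that reached beyond this range belonged to Psma8, Psme2b, Psmb8 and Psmc3ip. That of Psmb8, from -0.60 to -0.01, lay wholly below 0. For 47 of the 48, all but Psma8, the interval lay wholly above the interval of Psmb5. In the authors' deposited table the log2 ratios of these 48 run from -0.26 to 0.19.

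**Figure D3:**
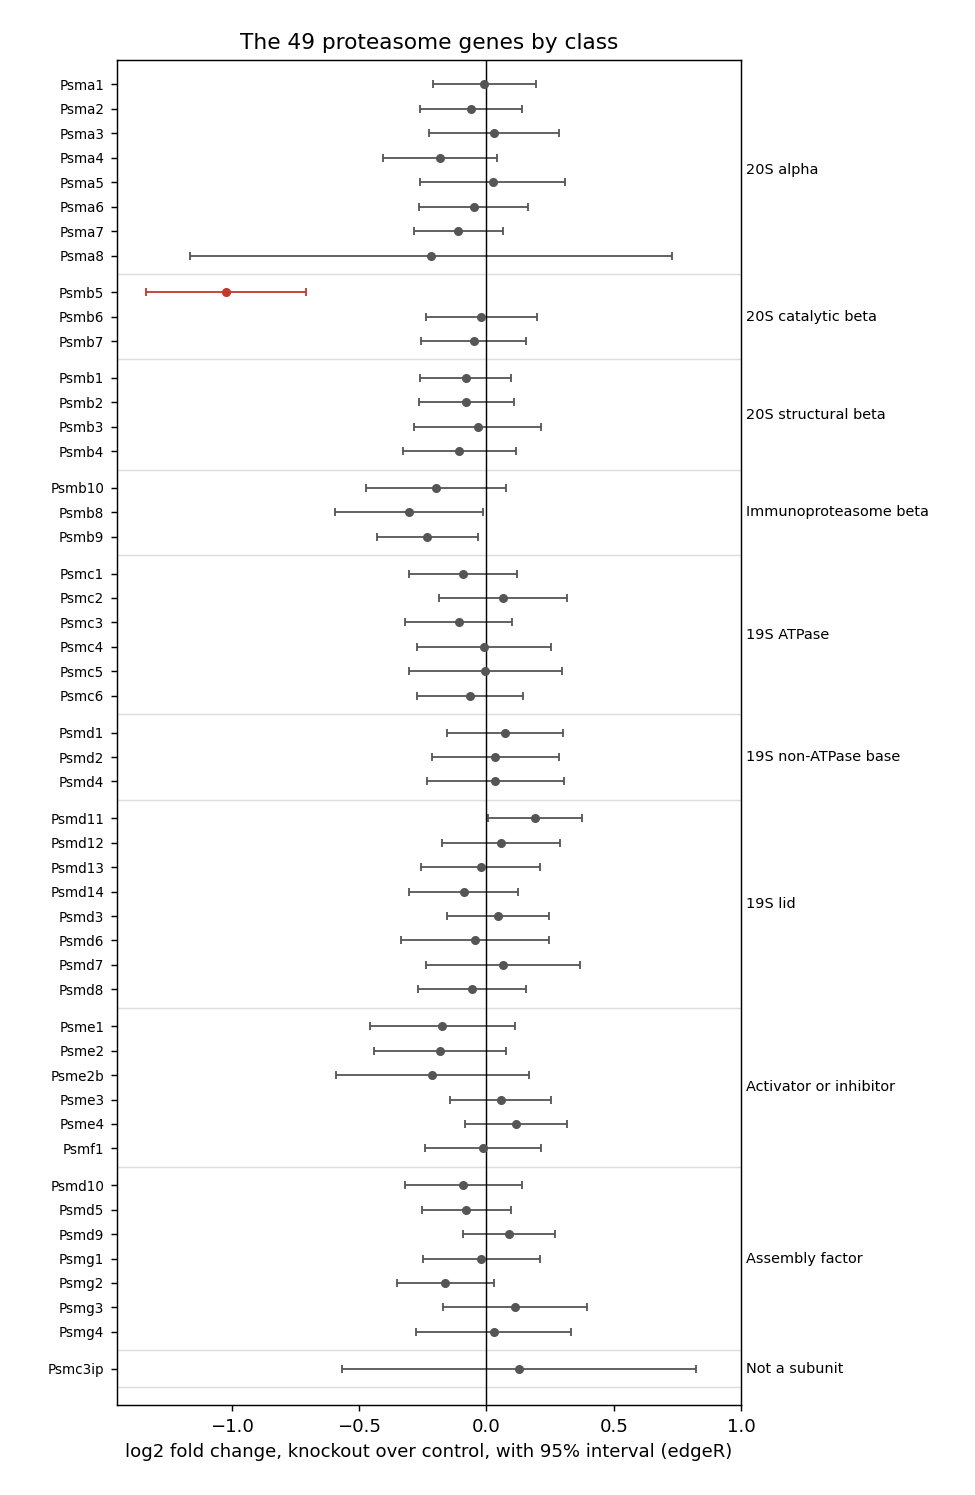
log2 fold change, knockout over control, with its 95% interval from edgeR for each of the 49 genes, grouped by class. Psmb5 (red) at -1.02 is the only gene with an adjusted p under 0.05, and the other 48 lie between -0.30 and 0.19.

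Within the knockouts the libraries ranked alike for most subunits. Summed over the 13 other constitutive 20S genes, knockout replicates 1 to 5 held 895, 956, 1091, 1021 and 907 CPM, against 1053, 999 and 1010 CPM in the controls. Summed over the 17 genes of the 19S particle, the knockouts held 1280, 1448, 1671, 1478 and 1353 CPM, against 1415, 1505 and 1419 CPM in the controls. Knockout replicate 3 was the highest knockout for 12 of the 13 and for 16 of the 17 genes, and both sums overlapped between the groups. Over all tested genes, the deviation of log2 CPM from the mean of a gene also ran with gene length. The rank correlation was 0.169, 0.217, -0.104, -0.120 and 0.213 in knockout replicates 1 to 5. The part of this trend in the ranking, and the share of all genes that rank alike, were not tested. The median SD of log2 CPM over the 48 genes was 0.138 in the knockouts and 0.0723 in the controls, beside 0.201 in the knockouts and 0.165 in the controls over all genes. Here too, genes of like level were not compared.

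**Figure D4:**
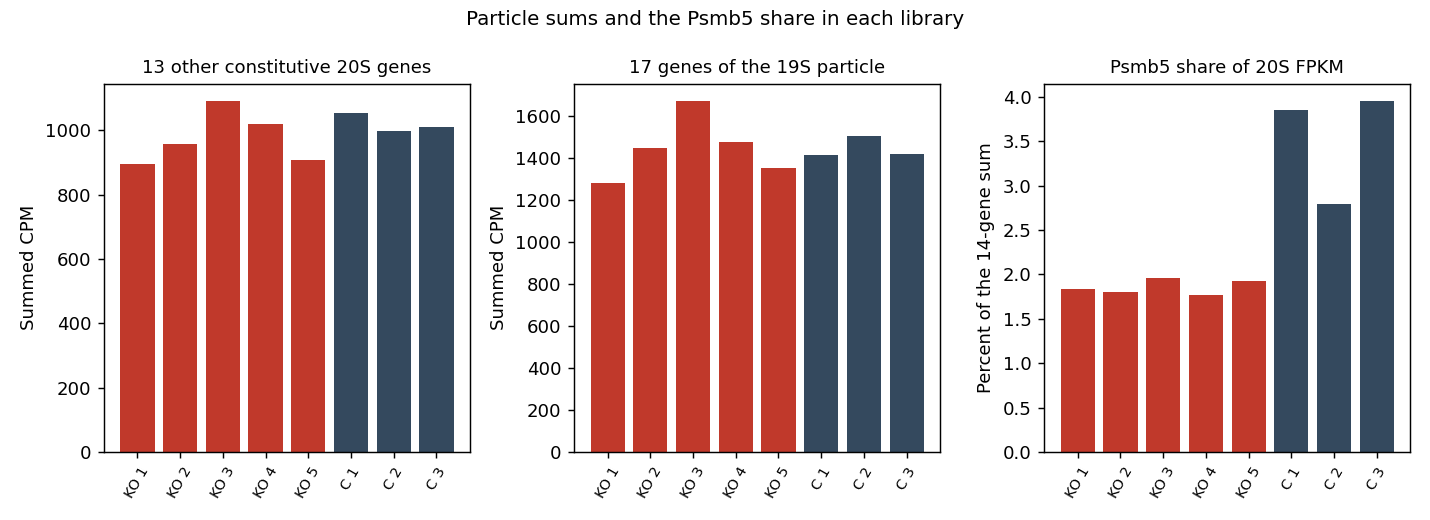
Summed CPM of the 13 other constitutive 20S genes and of the 17 genes of the 19S particle, and Psmb5 as a percentage of the summed FPKM of the 14 constitutive 20S genes, in each library (KO, knockout; C, control). Both sums overlap between the groups, while the Psmb5 share is 1.77 to 1.96% in the knockouts and 2.79 to 3.95% in the controls.

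Of the 8 alpha subunits, which form the outer rings and the gate of the core, none was called, with a median log2 fold change of -0.05. Psma4 had the smallest p of the lower ones, at 65.8 ± 7.42 CPM in knockout and 74.6 ± 2.63 CPM in control livers, a log2 fold change of -0.18 ± 0.0998 (SE, adjusted p in edgeR = 0.557). Psma3, with the smallest p above 0, had a log2 fold change of 0.03 ± 0.114 (SE, adjusted p in edgeR = 0.954). Psma8 was near the floor of the data, with 20 to 73 counts in the knockouts and 33 to 82 in the controls, and its interval of -1.16 to 0.73 leaves its difference undetermined.

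The 4 non-catalytic beta subunits Psmb1, Psmb2, Psmb3 and Psmb4 had log2 fold changes between -0.11 and -0.03. Psmb4 was at 128 ± 11.8 CPM in knockout and 138 ± 9.74 CPM in control livers (adjusted p in edgeR = 0.736). None of the 4 was called.

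The 6 ATPases of the 19S base, which unfold substrates and thread them into the core, had a median log2 fold change of -0.04. Psmc3 had the smallest p, at 113.7 ± 9.72 CPM in knockout and 123 ± 7.10 CPM in control livers, a log2 fold change of -0.11 ± 0.0937 (SE, adjusted p in edgeR = 0.717). Psmc2 was the only 1 above 0, with a log2 fold change of 0.07 (adjusted p in edgeR = 0.879). Psmd1 and Psmd2, the scaffolds of the base, and the ubiquitin receptor Psmd4 had log2 fold changes of 0.07, 0.04 and 0.04 (adjusted p in edgeR from 0.846 to 0.945).

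Of the 8 lid subunits, 4 were above and 4 below 0. Psmd11, whose amount is known to set the assembly of proteasomes in human stem cells, was at 57.9, 63.0, 58.2, 59.4 and 65.2 CPM in the knockouts, against 51.1, 50.4 and 58.2 CPM in the controls. Control replicate 3 reached the knockout values, so the groups overlapped. Its log2 fold change was 0.19 ± 0.0826 (SE, adjusted p in edgeR = 0.472). Psmd14, the deubiquitinase that removes ubiquitin chains from substrates, had a log2 fold change of -0.09 ± 0.0960 (SE, adjusted p in edgeR = 0.781).

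The immunoproteasome genes were the class with the lowest median, -0.23 on the log2 scale, and none was called. Psmb8 (chromosome 17, 34197721 to 34201454) was at 33.7, 33.3, 35.4, 39.4 and 32.1 CPM in the knockouts, against 45.9, 50.01 and 32.9 CPM in the controls. Psmb9 (chromosome 17, 34181988 to 34187764) was at 16.5, 18.6, 17.3, 18.9 and 16.4 CPM in the knockouts, against 21.7, 21.3 and 18.8 CPM in the controls. In both genes control replicate 3 fell among the knockouts while control replicates 1 and 2 lay above them. Their log2 fold changes were -0.30 ± 0.130 for Psmb8 and -0.23 ± 0.0885 for Psmb9 (SE, adjusted p in edgeR = 0.467 and 0.420). When 1 library was left out at a time, the log2 fold change of Psmb8 lay between -0.45 without control replicate 3 (adjusted p in edgeR = 0.160) and -0.18 without control replicate 2 (adjusted p in edgeR = 0.761). Psmb10 on chromosome 8 was at 34.3, 28.7, 27.7, 36.5 and 32.7 CPM in the knockouts, against 41.0, 38.6 and 30.4 CPM in the controls, a log2 fold change of -0.20 ± 0.123 (SE, adjusted p in edgeR = 0.607).

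Psmb8 FPKM were 88.3 to 116% of Psmb5 FPKM in the knockouts and 42.9 to 94.6% in the controls. These ranges overlap, and the ratio carries the Psmb5 difference with it. Psmb9 FPKM were 6.17 to 7.78% of Psmb6 FPKM in the knockouts and 7.41 to 8.76% in the controls. The size of these percentages again depends on the gene length used. The deposited lengths are 2736 bases for Psmb8 and 3659 for Psmb9, beside GENCODE M21 transcripts of 1628 and 1352 bases. These 2 ratios were not computed with another length.

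Psme1 and Psme2, the alpha and beta subunits of the interferon-induced PA28 activator, were, like Psmb8, lowest in replicate 3 among the controls. Psme1 averaged 59.1 ± 4.06 CPM in knockout and 66.5 ± 13.5 CPM in control livers (adjusted p in edgeR = 0.672). Psme2, of which 59.3% of the 50-base windows occur in other genes, averaged 18.5 ± 1.38 CPM in knockout and 20.97 ± 3.48 CPM in control livers, a log2 fold change of -0.18 (adjusted p in edgeR = 0.618), which lay at -0.07 without control replicate 1 and at -0.30 without control replicate 3. Psme4, the nuclear activator PA200, had the smallest p above 0, with 205 ± 13.1 CPM in knockout and 189 ± 12.1 CPM in control livers (adjusted p in edgeR = 0.681). Psme3 and the inhibitor Psmf1 had log2 fold changes of 0.06 and -0.01.

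Immune cells are known to express the immunoproteasome, so their markers stand beside these values. The 5 measured macrophage markers of 6 listed summed to 391.5 to 723 CPM in the knockouts and 354 to 652 CPM in the controls. The 5 B cell markers summed to 10.1 to 29.2 CPM in knockout and 12.8 to 32.5 CPM in control. The 6 T and NK cell markers summed to 1.74 to 4.52 CPM in knockout and 3.46 to 5.20 CPM in control. The 3 measured neutrophil markers of 6 listed summed to 0.851 to 3.31 CPM in knockout and 3.52 to 11.3 CPM in control, without overlap, and Camp was at 0 in some libraries. Of all genes tested, 3.74% lay lower without overlap. Control replicate 3, the lowest control for Psmb8, Psmb9 and Psmb10, was also the lowest control for each of these 4 sums. None of the markers was called by edgeR, which tested 5 macrophage, 4 B cell, 3 T and NK cell and 2 neutrophil markers. DESeq2 called the T and NK cell marker Gzma (log2 fold change -1.71, adjusted p = 0.0354) and the neutrophil marker S100a9 (-1.58, adjusted p = 0.0216), both lower in the knockouts. Of all genes, DESeq2 called 1.62%. At an unadjusted edgeR p under 0.05 stood Gzma, of the 3 tested T and NK cell markers, and S100a9 and S100a8, the 2 tested neutrophil markers. These 3 genes were all lower in the knockouts, where 4.68% of all genes were lower at that threshold. Of the tested macrophage and B cell markers, 0 stood there. The markers' part in the immunoproteasome values was not tested. Of 11 genes of interferon response and antigen presentation, 5 were below 0 and 6 above, and none was called. Nlrc5, the activator of MHC class I genes, had a log2 fold change of 0.24 ± 0.0959 (SE, adjusted p in edgeR = 0.440), and the peptide transporter subunit Tap2 one of -0.23 ± 0.156 (SE, adjusted p in edgeR = 0.632), which lay between -0.36 without control replicate 3 and -0.04 without control replicate 2.

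Of the 7 assembly factors, Psmg2, a chaperone of the alpha ring, was the only one with groups apart. It was at 10.1, 9.70, 10.1, 9.36 and 9.20 CPM in the knockouts, against 11.1, 10.6 and 10.9 CPM in the controls. The difference was small, with a log2 fold change of -0.16 ± 0.0855 (SE, adjusted p in edgeR = 0.543). Psmd9, a chaperone of the 19S base, had the smallest p above 0, with a log2 fold change of 0.09 ± 0.0808 (SE, adjusted p in edgeR = 0.727). The other 5 had log2 fold changes between -0.09 and 0.11.

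Of 31 measured genes that act with the proteasome (ubiquitin genes, activating enzymes, shuttle receptors, deubiquitinases, and the transcription factors of proteasome genes with their processing), 20 were above and 11 below 0, with a median log2 fold change of 0.03. None was called by edgeR, DESeq2 or any other setting. At an unadjusted edgeR p under 0.05 stood 5 of the 31 (16.1%, where 10.4% of all genes did), 1 lower and 4 higher. Sel1l, the adaptor of the ubiquitin ligase for misfolded proteins of the endoplasmic reticulum, was at 233 ± 26.9 CPM in knockout and 182 ± 20.99 CPM in control, a log2 fold change of 0.36 ± 0.122 (SE, adjusted p in edgeR = 0.365). Nfe2l1 had a log2 fold change of 0.24 ± 0.110 (SE, adjusted p in edgeR = 0.492), and the related factor Nfe2l2 one of -0.05 ± 0.0915 (SE, adjusted p in edgeR = 0.892).

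The TGACNNNGC motif, the core of the antioxidant response element, was searched on both strands of RefSeq windows from 250 bases before to 50 bases after the gene start. Of the 49 genes 41 had at least 1 such window. It was present in 6 of their 44 windows (13.6%), against 12.4% of all 32851 windows. CCAAT, which does not overlap it, was present in 14 of the 44 (31.8%), against 37.4% of all windows. Psmb5 and Psmb6 both hold TGACNNNGC, beginning 47 bases before the RefSeq start in Psmb5 and 9 bases before it in Psmb6. Psmc6, Psmd12, Psmd9 and Psme4 hold it as well, and Psmb7 was among the genes without a window. Of the 6 genes that hold it, only Psmb5 was called. The part of the motif in the Psmb5 value was not tested.

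The position of Psmb5 was then set beside its neighbours. It starts 14.6 Mb from Slc25a37, a targeted gene, on the same chromosome. The other members on chromosome 14 are Psmc6, Psmd6, Psme1 and Psme2, with log2 fold changes of -0.06, -0.04, -0.17 and -0.18, none of them called. Besides Mir686, 35 tested genes start within 1 Mb of Psmb5. Of these, 1 was called by edgeR (2.86%, where 0.109% of all genes were), 3 by DESeq2 (8.57%, where 1.62% were), and 9 stood at an unadjusted edgeR p under 0.05 (25.7%, where 10.4% did).

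The gene called by edgeR was Cebpe, a transcription factor of granulocytes whose start lies 96.2 kb from that of Psmb5. It held 0, 1, 0, 0 and 0 counts in the knockouts, against 207, 111 and 183 counts in the controls. DESeq2 also called Haus4, a subunit of the augmin complex of the mitotic spindle, and Slc7a7, an amino acid transporter. Haus4 averaged 16.7 CPM in knockout and 11.4 CPM in control, a log2 fold change of 0.56 (adjusted p in edgeR = 0.150), and Slc7a7 averaged 6.89 CPM in knockout and 3.63 CPM in control, a log2 fold change of 0.92 (adjusted p in edgeR = 0.301). Between Psmb5 and Cebpe, Acin1 had a log2 fold change of -0.13 (adjusted p in edgeR = 0.676). The differing neighbours were thus both higher and lower in the knockouts, with 18 of the 35 below 0. The part of the genotype of this region in the Psmb5 value was not tested.

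**Figure D5:**
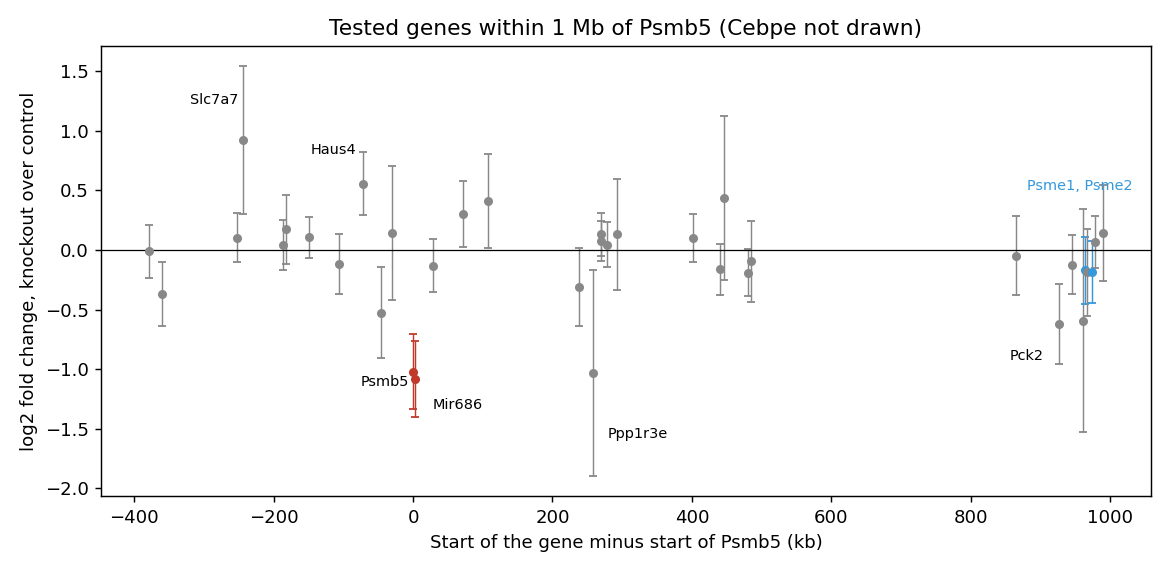
log2 fold change, knockout over control, with 95% interval from edgeR for the tested genes that start within 1 Mb of Psmb5, by distance between starts in kb; Cebpe is left out because its knockout counts are at or near 0. Psmb5 and Mir686 (red) lie at -1.02 and -1.08, Haus4 and Slc7a7 lie above 0, and Psme1 and Psme2 (blue) lie at -0.17 and -0.18.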

How the data were processed

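Liver RNA of 5 knockout and 3 control samples was analysed. Per the labels' protocols, a kit for stranded total RNA was used and ribosomal RNA was removed. Per the submitters' processing notes, Novoalign 2.8, mm10 and DESeq2 were used. The sources used here do not name the counting program or its strand setting.

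The authors deposited raw read counts per gene. They also deposited regularised log2 values and a log2 ratio, and an adjusted p as a score on a -10 log10 scale, of which only the log2 ratio is quoted. The FPKM were made by the authors, and they stand at ratios of 0.99967 to 0.99972 to the counts per kilobase of the deposited gene length and M counts.

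Counts were filtered with filterByExpr in edgeR 4.0.16 at its defaults, which kept 14664 genes, scaled by TMM and tested with edgeR's quasi-likelihood test (R 4.3.3, group as the only term, two-sided). P-values were adjusted by Benjamini-Hochberg over all tested genes, with a threshold of 0.05. SE is the fold change over the root of F. DESeq2 1.42.0 and limma-voom (limma 3.58.1) were alternatives. On simulated counts of 14537 genes with this comparison's groups, the share of true changes of log2 size 1 that edgeR found was 84.4%, with 4.71% false calls. DESeq2 had 10.7% false calls on these simulated counts. They were drawn with 1 dispersion for all genes and no trend between libraries, so they do not give the error rates of the real data. 1 count stood for 0.0227 to 0.0404 CPM. Replicates of a group differed by a chi-square of 28.1 to 77.3 per gene, above sampling noise, and all 8 were kept. Shared replicate numbers did not pair the samples.

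The members, lists, tests and the rule for named genes were chosen with earlier results of these data known. Every library is given for the 6 catalytic subunits and for called members, and otherwise the member with the smallest p in each direction from each class and list. 1 listed gene is not reported here. Psma8, Psmd1, Psmd2, Psmd4, Nfe2l1, Nfe2l2, Psme1, Psme3 and Psmf1 were named beyond this rule, after their values were seen. Figures were drawn with matplotlib 3.10.9.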

Additional observations from a re-analysis of the deposited data

How the results depend on the processing

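Over 20 alternatives the log2 fold change of Psmb5 ranged from -1.18 to -0.92. Its call was kept with DESeq2 (adjusted p = 7.59e-07), limma-voom, other scaling factors, no filter, thinned counts and removal of the length trend, and no other proteasome gene was called under any of them. It was lost in samples numbered 82 (-1.05) and in knockouts numbered 85 against the controls (-1.003). The call was also lost without knockout replicates 1 and 2 together (-0.95, adjusted p in edgeR = 0.210) and with Mir686 counts taken off (-0.99). In the first 3 of these settings 0 proteasome genes were called. In the last, only the Psmb5 counts were altered. There edgeR called 15 of all tested genes, 8 of them lower, in place of 16 and 9. Leaving out 1 library at a time gave 0 to 1 proteasome genes called. The cause of each loss was not tested, although each omission also leaves fewer samples. With the replicate block the value was -0.99 (adjusted p in edgeR = 0.192) and 0 proteasome genes were called. With the group mean of each gene taken off the log2 CPM, same-numbered samples correlated at 0.0806, 0.0198 and -0.0604, so the numbers were not taken as pairs.

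By counts per kilobase of GENCODE exons, Psmb5 was 10th of the 14 genes in control in place of 11th, next to Psma2, and Psmb1 was 9th in place of first. Genes near 0 changed sign in some settings. Psmb6 ranged from -0.061 to 0.035 when 1 library was left out and was at 0.0062 in samples numbered 82, 0.063 without knockout replicates 1 and 2, and 0.034 without the length trend, and Psmb7 was at 0.015 and 0.023 under the last 2 of these. Psma3 ranged from -0.043 to 0.079 when 1 library was left out, and Psmc2 and Psma3 were at -0.0083 and -0.012 in samples numbered 82. None was called. Psma8, Psmc3ip and Psme2b hold under 100 counts in every library, which limits the precision of their fold changes.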
